A study of Mus musculus with 18 samples.

Results

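The TRIM genes encode tripartite motif proteins, and they were taken here as every mouse gene whose symbol is Trim followed by a digit. Of 18193 genes with a probe set of a single symbol, 58 met this rule, and 39 of them were among the 11932 genes bright enough to be tested. Each gene was read from 1 probe set, the one with the highest mean over all arrays, out of 111 such probe sets for the family. The 39 tested genes passed a filter on dim values, 28 of them on all 18 arrays, and the 19 others are named with their signals at the end of these results.

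Most TRIM proteins carry a RING domain, B-boxes and a coiled coil, and act as E3 ubiquitin ligases, the enzymes that choose which protein receives ubiquitin. Many of those with a PRY-SPRY domain at the end of the chain restrict viruses or tune the sensing of foreign RNA and DNA, and a subset is switched on by interferons. Interleukin 6 (IL-6) and interleukin 27 (IL-27) share the receptor chain gp130 and activate STAT3 in T cells.

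The cells were naive CD4 T cells of C57BL/6J mice, taken from lymph nodes and spleen and sorted as CD44-, CD62L+ and CD25- cells. They were wild type (WT) or carried Cd4-Cre with the STAT3<tm1Dlv> allele (STAT3-deficient), in which Cre acts in the T lineage, and ages were not given in the labels. Each genotype was held for 3 h in medium alone, with IL-6 at 20 ng/ml or with IL-27 at 20 ng/ml, so the controls of a cytokine share its genotype, and each of the 6 groups had 3 arrays. The series calls the arrays biological triplicates.

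Stat3 itself checked the genotype labels. Its brightest probe set read from 2361.4 to 3101.4 signal units in WT medium and from 1109.7 to 1264.7 in STAT3-deficient medium, a log2 difference of -1.11 ± 0.12 (SE). Another gave -0.92 ± 0.13, and of the other 2, which are dim, one was higher by 0.80 ± 0.27 and one gave 0.12 ± 0.20. Which of them read the deleted part of the gene was not analysed here. Array medians ran from 104.4 to 126.8 in WT cells and from 131.5 to 190.4 in STAT3-deficient cells, and quantile normalisation was applied to all arrays. Summed signals of 9 B cell markers were 668 to 1030 in WT and 1703 to 2728 in STAT3-deficient arrays, and those of 10 myeloid markers were 892 to 1478 and 2299 to 3357. T cell markers summed to 145312 to 157342 in WT medium, 106694 to 111525 with IL-6 and 120640 to 127565 with IL-27, and to 108968 to 133637 on STAT3-deficient arrays. Hemoglobin and other red cell markers summed to 769 to 979 on the STAT3-deficient arrays numbered 3, to 224 to 364 on the other STAT3-deficient arrays and to 132 to 253 on WT arrays. B cell and myeloid marker sums thus differed between genotypes without overlap. Within a genotype, marker sums also moved with treatment. Of 10 tested T cell markers, IL-6 and IL-27 lowered 8 and 6 in WT cells and 1 and 5 in STAT3-deficient cells, and raised none. Over all genes 4.68%, 2.01%, 0.159% and 1.71% were called lower in these comparisons (threshold given below). Sums of 7 CD8 T and NK cell markers were 3027 to 3532 in WT medium and 2189 to 2606 with IL-27, and 2370 to 2721 and 2030 to 2210 in STAT3-deficient cells. Myeloid sums in WT cells were 1202 to 1425 in medium and 892 to 1201 with IL-6, while B cell sums overlapped between treatments in each genotype. The part of these markers in the Trim results was not tested.

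Levels are given as log2 of the signal plus 32 after normalisation, and changes as log2 differences ± SE, the standard error from a limma model of the 18 arrays. A gene was called at a Benjamini-Hochberg adjusted p under 0.05 over the 11932 genes. Levels of different probe sets were not compared with each other. In bulk RNA, fewer cells of a type and less RNA per cell cannot be told apart.

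In WT cells IL-6 raised 9 of the 39 genes, Trim12a, Trim12c, Trim21, Trim30a, Trim30d, Trim34a, Trim41, Trim5 and Trim56, and lowered 2, Trim25 and Trim59. Over all genes, 3.66% were called higher and 4.68% lower in that comparison. IL-27 raised 7, Trim12a, Trim12c, Trim21, Trim30a, Trim30d, Trim34a and Trim56, and lowered none, against 2.71% higher and 2.01% lower over all genes. In STAT3-deficient cells IL-6 raised 9, Trim12a, Trim14, Trim21, Trim25, Trim26, Trim30a, Trim30d, Trim34a and Trim56, and lowered none, against 1.69% and 0.159%. IL-27 raised the same genes and Trim12c, 10 in all, and lowered none, against 3.28% and 1.71%. The median over the 39 genes stayed near 0 in each of these comparisons, -0.04, 0.07, -0.08 and 0.03, beside -0.02, -0.04, -0.03 and -0.03 over all genes. The changes therefore lay in a minority of the family: 13 genes were called against medium at least once, 6 more differed only between the genotypes in medium, and 20 were called nowhere.

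**Figure D1:**
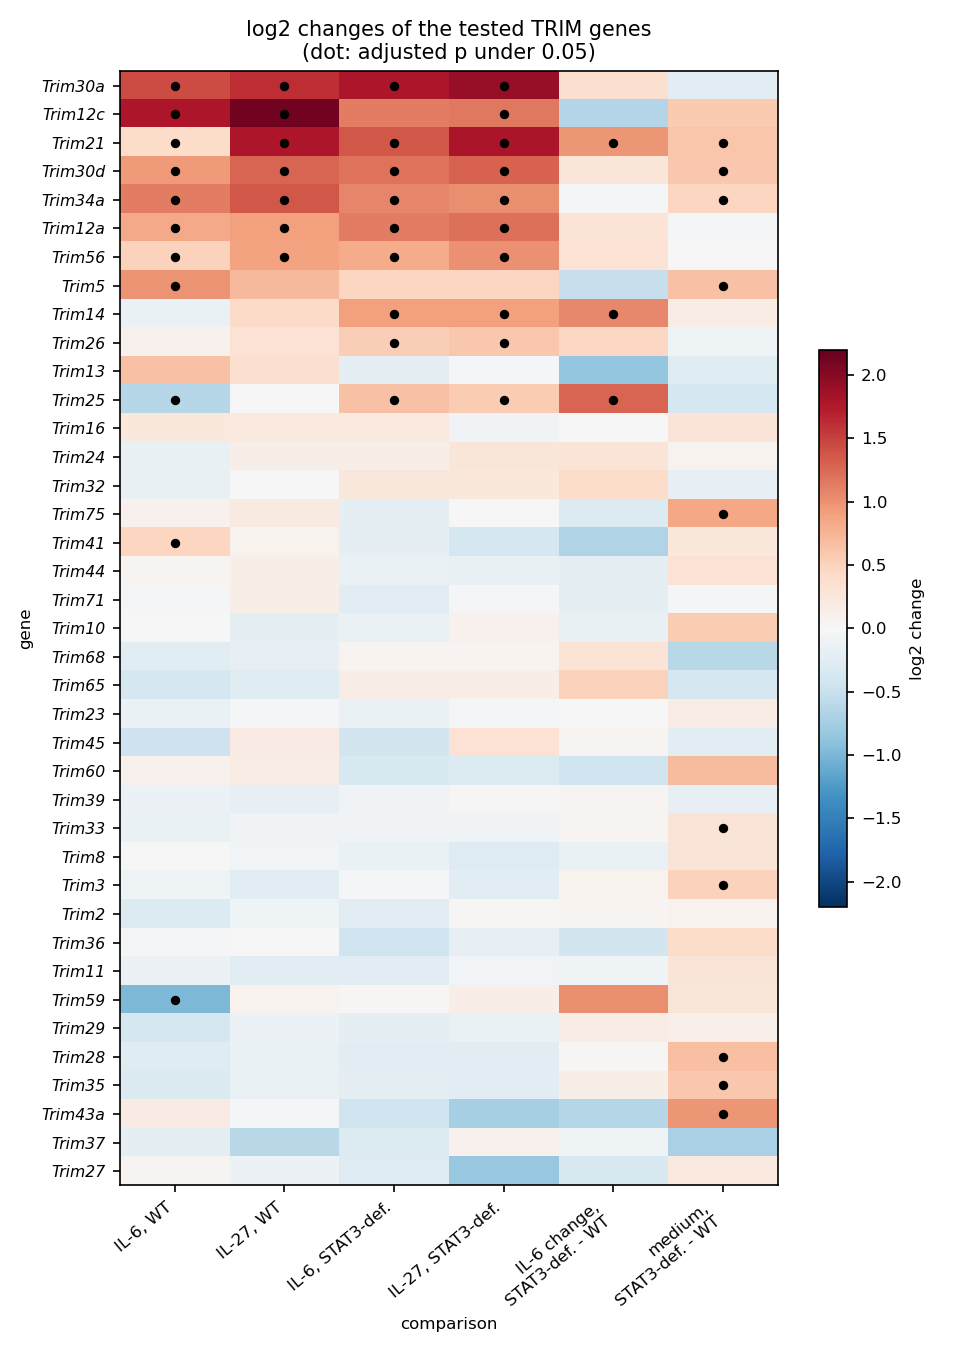
log2 changes of the 39 tested TRIM genes (vertical axis, ordered by mean change with cytokine) in 6 comparisons (horizontal axis), as colour, with a dot where limma gave an adjusted p under 0.05. The called increases with cytokine fall on the 10 genes at the top and on Trim25 and Trim41, and the called differences between genotypes in medium, all increases, fall on 10 genes.

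Grouped by role, the increases were found almost entirely among the 13 tested genes of the antiviral and innate sensing TRIMs. Of these, 8 rose and 1 fell with IL-6 in WT cells, 7 rose with IL-27 in WT cells, and 9 and 10 rose with IL-6 and IL-27 in STAT3-deficient cells. Trim23, which also carries a GTPase domain, and Trim65, known for acting on the RNA sensor MDA5, were the tested members of this group called in none. The other 26 tested genes gave 1 increase, Trim41, and 1 decrease, Trim59, in those 4 comparisons. Over all genes 3.66%, 2.71%, 1.69% and 3.28% were called higher there. The role groups were drawn up with earlier results of these data known, so this grouping is a description and not a test. Of the 13 genes, 6 belong to the chromosome 7 run described next.

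Of the 12 genes that a cytokine raised in at least 1 genotype, 6 lie together. In the RefSeq gene table a run of 11 protein-coding genes on chromosome 7 holds 10 Trim genes, in the order Trim6, Trim34a, Trim5, Trim12a, Trim34b, Trim12c, Gm38525, Trim30b, Trim30c, Trim30a and Trim30d. Of these, 7 had a probe set of a single symbol, 6 were tested and all 6 rose with IL-6 in WT cells, where all genes gave 3.66%. With IL-27 in WT cells 5 of the 6 rose, all but Trim5, where all genes gave 2.71%. In STAT3-deficient cells 4 rose with IL-6 and 5 with IL-27, where all genes gave 1.69% and 3.28%. The Trim genes of this run are relatives of each other, some of them close, so a probe set may also have read a neighbour, and the members are not independent. How alike their transcripts or probes are was not analysed.

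Interferon-stimulated genes often carry an interferon-stimulated response element, whose core, GAAA and GAAA with 2 bases between them, is bound by IRF proteins, whereas STAT dimers bind TTC and GAA with 3 bases between them. Both letter patterns were searched on both strands in the RefSeq promoter windows of the GRCm38.p6 build, 250 bases before to 50 after a start site, in which 47 of the 58 genes had an entry. The paired GAAA was present in at least 1 window of 3.99% of 27025 genes (3.44% of 32851 windows). It was present for 8 of the 11 matched genes that rose with a cytokine in either genotype, Trim12a, Trim12c, Trim21, Trim26, Trim30a, Trim30d, Trim34a and Trim5, and was not found in those of Trim25, Trim41 and Trim56. Of 18 other tested genes with an entry, 1 had it, Trim2. The STAT dimer pattern was present for 9.55% of genes (8.3% of windows), for none of the 11 and for 1 of the 18, Trim45. A match is a description of the letters, not a shown binding site. The stretches with the match are given because each of these genes rose in at least 1 comparison with medium, though not all in the same one. They are written 5′ to 3′ in the direction of its gene, with the bases of the match in capitals (the paired TTTC is the same pattern read on the other strand).

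Trim30a, chr7:104465210-104465239, minus strand: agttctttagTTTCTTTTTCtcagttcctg
Trim30d, chr7:104507871-104507900, minus strand: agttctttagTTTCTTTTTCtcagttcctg
Trim34a, chr7:104244457-104244486, plus strand: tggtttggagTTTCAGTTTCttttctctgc
Trim5, chr7:104288136-104288165, minus strand: agagttgtggTTTCTGTTTCatttccagag
Trim12a, chr7:104315466-104315495, minus strand: agagttgtggTTTCTGTTTCatttccagag
Trim12c, chr7:104353359-104353388, minus strand: agagttgtggTTTCTGTTTCatttccagct
Trim21, chr7:102565447-102565476, minus strand: ctgagagGAAACTGAAAGTGAAAtttggac
Trim26, chr17:36836979-36837008, plus strand: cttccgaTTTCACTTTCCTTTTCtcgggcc

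The 30 bases shown were identical in Trim30a and Trim30d and identical in Trim5 and Trim12a, and Trim12c differed from the latter pair at 2 bases. Trim21 and Trim26 each held 2 overlapping matches. The match began 36 bases before the start site in Trim30a, 41 before in Trim30d, 49 before in Trim5, 29 before in Trim12c and 160 before in Trim26, and 11 bases into the transcript in Trim34a and Trim12a and 14 in Trim21. As a longer context, the 250 bases before the first start site listed for Trim30a are given, since this gene rose in all 4 comparisons with medium.

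Trim30a, chr7:104465194-104465443, minus strand: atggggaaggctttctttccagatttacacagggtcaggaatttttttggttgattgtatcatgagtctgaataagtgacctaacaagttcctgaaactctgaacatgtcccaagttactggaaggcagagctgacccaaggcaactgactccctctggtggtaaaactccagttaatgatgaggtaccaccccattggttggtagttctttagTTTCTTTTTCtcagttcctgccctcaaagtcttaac

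Trim30a, which in macrophages dampens Toll-like receptor signalling by degrading the TAB2 and TAB3 adaptors, read 10.81, 11.05 and 10.89 in medium, 12.52, 12.33 and 12.19 with IL-6 and 12.66, 12.48 and 12.47 with IL-27 in WT cells. The STAT3-deficient arrays read 10.97, 10.34 and 10.68 in medium, 12.57, 12.27 and 12.50 with IL-6 and 12.64, 12.33 and 12.78 with IL-27. Every cytokine array lay above every medium array of its genotype, and the IL-6 and IL-27 arrays overlapped. The changes were 1.43 ± 0.15 with IL-6 and 1.62 ± 0.15 with IL-27 in WT cells (adjusted p = 1.2e-06 and 2.7e-07, limma), and 1.78 ± 0.15 and 1.92 ± 0.15 in STAT3-deficient cells, folds of 2.7, 3.08, 3.44 and 3.78. The test of the difference between genotypes gave 0.35 ± 0.21 for IL-6 (adjusted p = 0.541) and 0.30 ± 0.21 for IL-27 (adjusted p = 0.737).

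Trim30d, a paralogue of Trim30a, read 8.36, 8.55 and 8.66 in medium, 9.79, 9.38 and 9.22 with IL-6 and 9.98, 9.71 and 9.72 with IL-27 in WT cells. Without STAT3 the levels were 9.33, 9.06 and 8.94 in medium, 10.39, 10.33 and 10.21 with IL-6 and 10.32, 10.38 and 10.50 with IL-27. It rose in all 4 comparisons, by 0.94 and 1.28 in WT cells and by 1.20 and 1.29 in STAT3-deficient cells (SE 0.15 each). A second, dimmer probe set of Trim30d gave a steeper rise in STAT3-deficient cells, 2.55 ± 0.26 with IL-6, and put the STAT3-deficient medium below the WT medium by -1.41 ± 0.26, where the first put it above by 0.59 ± 0.15. On that second probe set the IL-6 change also differed between genotypes, by 1.90 ± 0.37 (adjusted p = 0.00781, limma fit of all probe sets), against 0.26 ± 0.21 on the first. The direction of the genotype difference in medium and the test of the difference in IL-6 change thus depend on the probe set for this gene.

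Trim34a, the counterpart of human TRIM34, which binds retroviral capsids, read 10.88, 10.76 and 11.22 in medium, 12.16, 11.94 and 12.12 with IL-6 and 12.18, 12.37 and 12.38 with IL-27 in WT cells. On STAT3-deficient arrays the gene stood at 11.59, 11.30 and 11.38 in medium, 12.27, 12.66 and 12.59 with IL-6 and 12.42, 12.20 and 12.71 with IL-27. No cytokine array overlapped the medium arrays of its genotype. The changes were 1.12 and 1.36 in WT cells and 1.08 and 1.02 in STAT3-deficient cells (SE 0.14 each), with adjusted p from 2.01e-06 to 6.7e-05 by limma. The genotype difference in the IL-6 change was -0.04 ± 0.20.

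Trim12a and Trim12c are rodent relatives of the retroviral restriction factor TRIM5. Trim12a read 10.96, 11.12 and 11.08 in medium, 12.01, 11.76 and 11.89 with IL-6 and 12.08, 11.97 and 11.80 with IL-27 in WT cells. The corresponding STAT3-deficient values were 11.12, 10.81 and 11.14 in medium, 12.17, 12.03 and 12.28 with IL-6 and 12.16, 12.14 and 12.40 with IL-27. It rose by 0.83 and 0.90 in WT cells and by 1.13 and 1.21 in STAT3-deficient cells (SE 0.11 each), with no overlap between cytokine and medium. Trim12c read 9.22, 9.30 and 10.20 in medium, 11.38, 11.03 and 11.62 with IL-6 and 11.08, 11.80 and 12.23 with IL-27 in WT cells, and its arrays were spread more widely within groups. The STAT3-deficient arrays read 10.56, 10.11 and 9.78 in medium, 10.95, 11.33 and 11.56 with IL-6 and 11.12, 10.80 and 12.001 with IL-27. A second, dimmer probe set of Trim12c read, as deposited, 303.3 to 416.3 units in WT medium, 777.6 to 798 with IL-6 and 789 to 1165.8 with IL-27. On the probe sets read here, the changes of Trim12c were the largest of the family in WT cells, 1.77 ± 0.32 with IL-6 and 2.13 ± 0.32 with IL-27 (folds 3.42 and 4.37). In STAT3-deficient cells the IL-27 change of 1.16 ± 0.32 was called (adjusted p = 0.0447) and the IL-6 change of 1.13 ± 0.32 was not (adjusted p = 0.112, limma), although the arrays did not overlap. That IL-6 change was called under median centring (adjusted p = 0.00707), with the mean of all probe sets (0.00743), with the replicate block (0.0383) and with only the arrays compared (0.0457). The IL-27 call was lost in 8 of 17 alternatives. These were no filter (adjusted p = 0.0634, limma), no variance trend (0.0991), only the arrays compared (0.079), and leaving out arrays. It was lost without the STAT3-deficient IL-27 array 1 (0.0769) or 3 (0.159), or the STAT3-deficient medium array 2 (0.122) or 3 (0.15). The change was 0.62 without the 3 STAT3-deficient arrays numbered 3 (0.305). Trim5 read 8.76, 9.17 and 8.91 in medium, 9.71, 10.04 and 10.03 with IL-6 and 9.06, 9.92 and 10.01 with IL-27 in WT cells and rose with IL-6, by 0.98 ± 0.22. Its IL-27 change there, 0.72 ± 0.22, was not called, but it was called without the WT IL-27 array 1 (1.02, adjusted p = 0.00489) and with the replicate block (0.00497). Its changes of 0.47 and 0.48 in STAT3-deficient cells were not called.

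**Figure D2:**
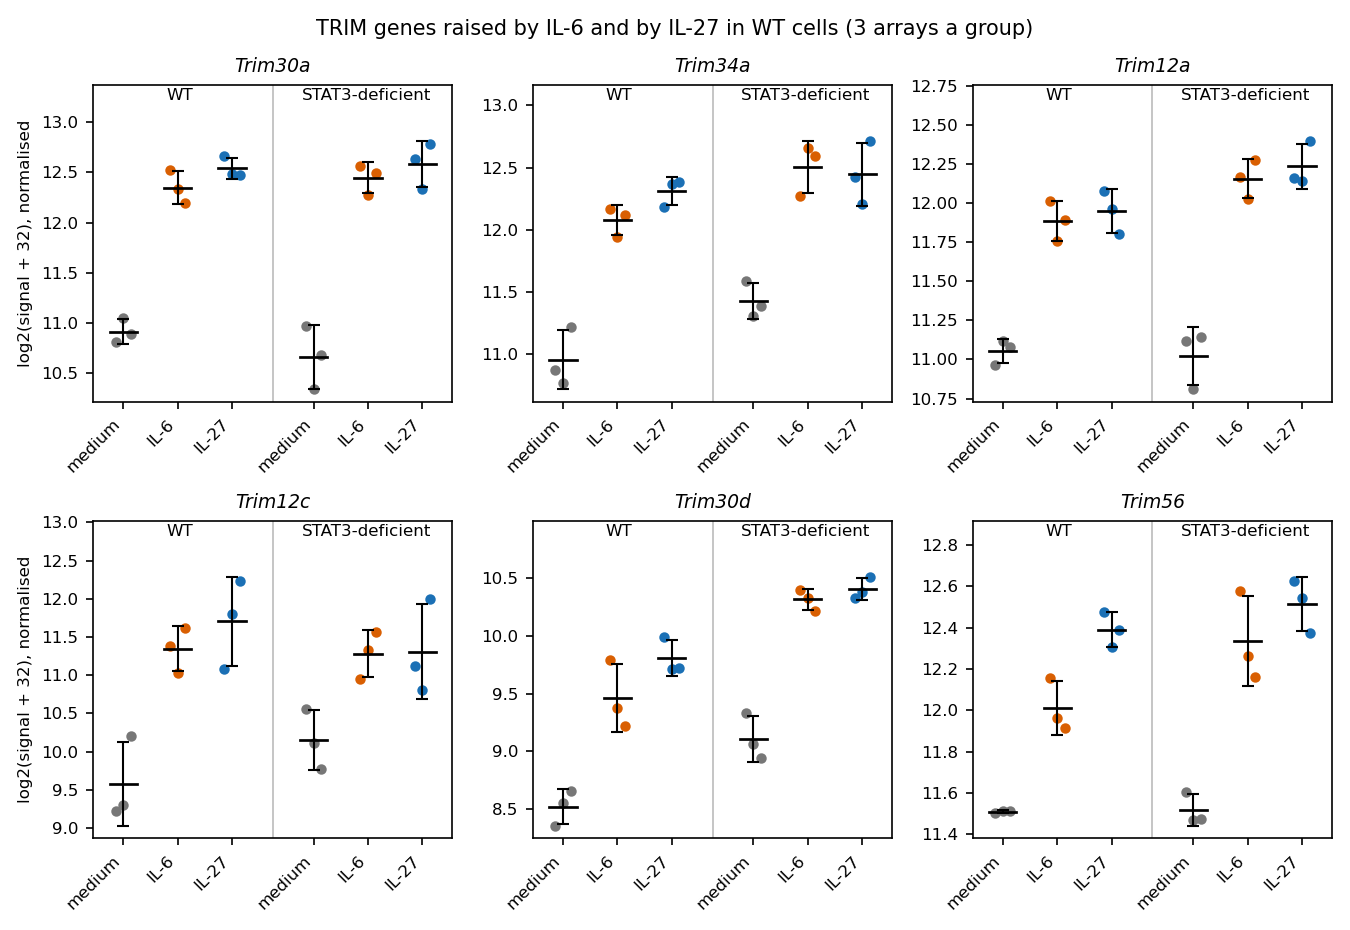
Level of 6 TRIM genes on each array (points), as log2 of the signal plus 32 after normalisation (vertical axis), by treatment and genotype (horizontal axis), with the mean (long bar) and SD of 3 arrays. In all 6 panels every cytokine array lies above every medium array of the same genotype, and the IL-6 change of Trim12c in STAT3-deficient cells is the only one of these not called.

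Trim56, an RNA-binding ligase with reported roles in cytosolic DNA sensing, read 11.50, 11.51 and 11.51 in medium, 12.16, 11.96 and 11.91 with IL-6 and 12.47, 12.31 and 12.39 with IL-27 in WT cells. Without STAT3 the levels were 11.60, 11.47 and 11.47 in medium, 12.58, 12.26 and 12.16 with IL-6 and 12.63, 12.54 and 12.37 with IL-27. Every cytokine array lay above the medium arrays of its genotype, and in WT cells the IL-27 arrays lay above the IL-6 arrays as well. It rose by 0.50 and 0.88 in WT cells and 0.82 and 1.00 in STAT3-deficient cells (SE 0.10 each). The difference of IL-27 against IL-6 in WT cells, 0.38 ± 0.10, missed the call (adjusted p = 0.0542) but was called in 5 alternatives, among them without the WT IL-6 array 1 (0.45, adjusted p = 0.0389).

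Trim21, the cytosolic antibody receptor that targets antibody-coated viruses for degradation, set the 2 cytokines apart in WT cells. It read 10.36, 10.37 and 10.57 in medium, 10.90, 10.77 and 10.84 with IL-6 and 12.26, 12.05 and 12.32 with IL-27 in WT cells, so that IL-6 and IL-27 arrays did not overlap. On STAT3-deficient arrays the gene stood at 11.05, 11.16 and 10.89 in medium, 12.47, 12.29 and 12.45 with IL-6 and 12.91, 12.72 and 12.85 with IL-27. IL-6 raised it by 0.40 ± 0.10 in WT cells (fold 1.32, adjusted p = 0.0122) and by 1.37 ± 0.10 in STAT3-deficient cells (fold 2.58). IL-27 raised it by 1.78 and 1.79 (SE 0.10 each) in the respective genotypes. The IL-6 change was 0.96 ± 0.14 larger in STAT3-deficient cells (adjusted p = 0.000372, limma interaction), whereas the IL-27 change differed by 0.01 ± 0.14 (adjusted p = 0.989). The WT call with IL-6 was lost without the WT medium array 1 (adjusted p = 0.0612) or 2 (0.0634) or the WT IL-6 array 1 (0.0616). The interaction was called in every alternative tried, with adjusted p up to 0.00513, and a second probe set gave 0.98 ± 0.19.

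Trim25, the ligase that ubiquitinates the RNA sensor RIG-I, moved in opposite directions with IL-6 in the 2 genotypes. It read 12.53, 12.58 and 12.23 in medium, 11.96, 11.95 and 11.55 with IL-6 and 12.59, 12.26 and 12.44 with IL-27 in WT cells, where IL-6 arrays lay below all others. The corresponding STAT3-deficient values were 11.84, 11.96 and 12.36 in medium, 12.87, 12.45 and 12.78 with IL-6 and 12.71, 12.47 and 12.64 with IL-27, where both cytokines lay above medium. IL-6 lowered it by -0.62 ± 0.15 in WT cells (adjusted p = 0.00995) and raised it by 0.65 ± 0.15 in STAT3-deficient cells (adjusted p = 0.024). The difference between those changes was 1.27 ± 0.21 (adjusted p = 0.00134, limma interaction), called in every alternative tried with adjusted p up to 0.00866. IL-27 gave -0.02 ± 0.15 in WT cells and 0.56 ± 0.15 in STAT3-deficient cells (adjusted p = 0.979 and 0.0337), and the difference of 0.57 ± 0.21 was not called (adjusted p = 0.662). A second probe set gave -0.50 ± 0.13 and 0.62 ± 0.13 with IL-6, and the third, -0.06 ± 0.18 and 0.77 ± 0.18. The WT decrease was lost without the WT IL-6 array 3 (adjusted p = 0.0801) or the WT medium array 2 (0.0606). The STAT3-deficient increase with IL-6 was lost without the STAT3-deficient IL-6 array 1 (0.14) or 3 (0.113) or the medium array 1 (0.165) or 2 (0.123), and that with IL-27 without the IL-27 array 1 (0.142) or 3 (0.0694) or the medium array 1 (0.182) or 2 (0.132).

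Trim14, a RING-less adaptor of the mitochondrial antiviral protein MAVS, read 9.69, 9.68 and 9.53 in medium, 9.69, 9.49 and 9.29 with IL-6 and 10.20, 10.01 and 9.96 with IL-27 in WT cells. The STAT3-deficient arrays read 10.01, 9.64 and 9.76 in medium, 11.13, 10.33 and 10.67 with IL-6 and 11.02, 10.54 and 10.53 with IL-27. IL-6 and medium overlapped in WT cells (-0.14 ± 0.18) and were separate in STAT3-deficient cells, where it rose by 0.91 ± 0.18 with IL-6 (adjusted p = 0.00597) and 0.90 ± 0.18 with IL-27 (adjusted p = 0.0035). The IL-6 change differed between genotypes by 1.05 ± 0.25 (adjusted p = 0.0235, limma interaction). That call was lost without any one of the WT medium arrays 1 and 2, the WT IL-6 arrays 2 and 3, the STAT3-deficient IL-6 array 1 and the STAT3-deficient medium array 2, with adjusted p from 0.0564 to 0.0793. Without the STAT3-deficient arrays numbered 3 it was lost as well (0.0704), as was the IL-6 change in STAT3-deficient cells (0.0629). The difference between genotypes was also lost with the mean of all probe sets (0.69, adjusted p = 0.0623) and with no variance trend (0.0526). With that mean the IL-27 change in STAT3-deficient cells was 0.37 and not called (0.183).

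Trim26, known to mark nuclear IRF3 for degradation, read 9.63, 9.86 and 10 in STAT3-deficient medium, 10.37, 10.33 and 10.44 with IL-6 and 10.56, 10.28 and 10.45 with IL-27. It rose there by 0.55 ± 0.11 and 0.60 ± 0.11, and its WT changes of 0.09 and 0.31 were not called, but the difference between genotypes was not called either (0.46 ± 0.16 for IL-6, adjusted p = 0.176). The IL-6 call was lost without the STAT3-deficient IL-6 array 3 (adjusted p = 0.058) or medium array 1 (0.0856), and with the mean of all probe sets of the gene (0.89). The IL-27 call was lost with that mean (0.25) and in a fit of only the arrays compared (0.0699).

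**Figure D3:**
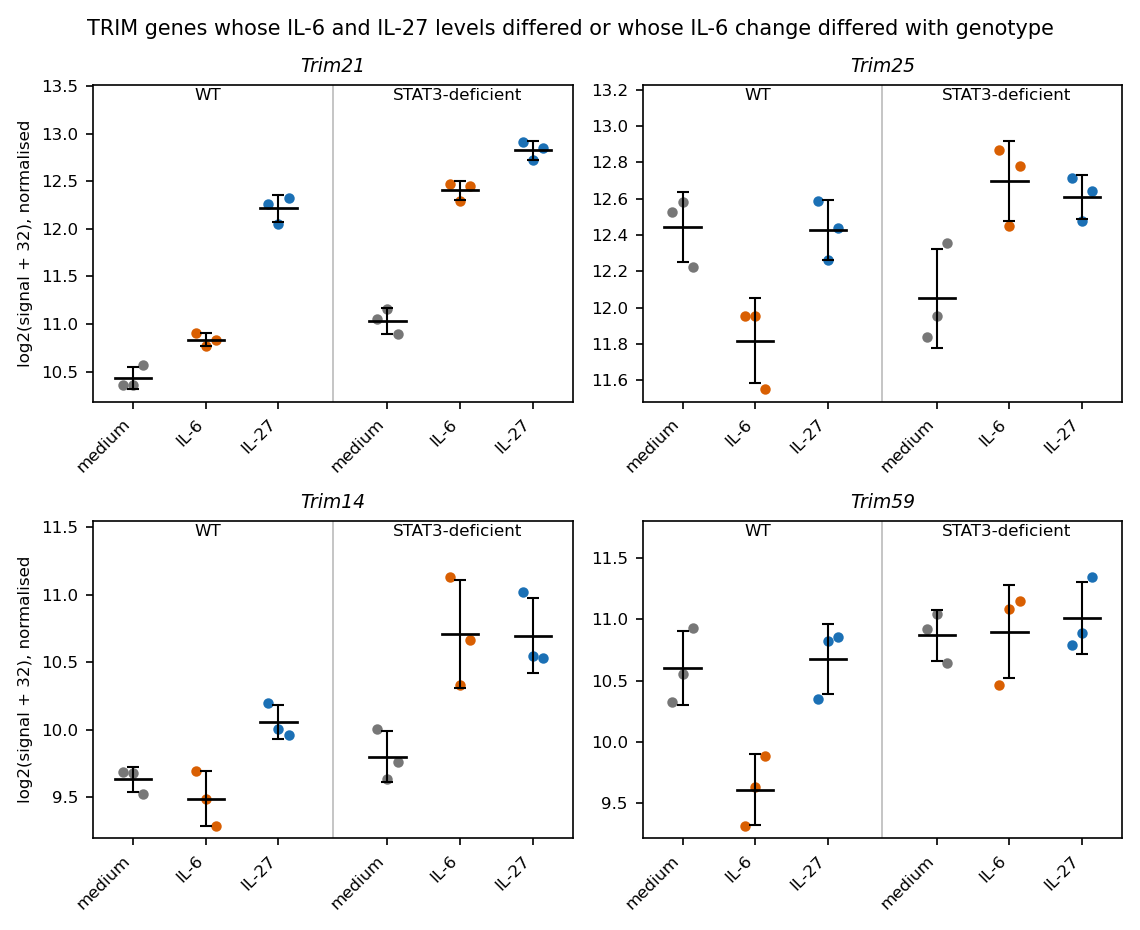
Level of Trim21, Trim25, Trim14 and Trim59 on each array (points), as log2 of the signal plus 32 after normalisation (vertical axis), by treatment and genotype (horizontal axis), with the mean (long bar) and SD of 3 arrays. In WT cells the IL-6 arrays lie below the IL-27 arrays in all 4 panels, and in STAT3-deficient cells they overlap in all but Trim21.

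Across the family, Trim14, Trim21 and Trim25 were the 3 of 39 genes whose IL-6 change differed between genotypes in the main fit, all toward a larger value in STAT3-deficient cells, against 1.84% of all genes called higher and 1.25% lower. Calls toward a smaller value arose in alternatives. They were Trim41 with the mean of all probe sets (-0.755, adjusted p = 0.00997, limma) and Trim13 without the STAT3-deficient IL-6 array 1 (-1.137, adjusted p = 0.0442). For the IL-27 change 0 of 39 genes were called by limma, with 3 at an unadjusted p under 0.05, and over all genes 0.00838% were called higher and 0.00838% lower, so hardly any gene of the array was called in that comparison. IL-27 gave higher levels than IL-6 in WT cells for 3 genes, Trim21 by 1.38 ± 0.10, Trim25 by 0.61 ± 0.15 and Trim59 by 1.06 ± 0.21, and lower for none, against 1.77% and 1.37%. The Trim25 call there was lost without the WT IL-27 array 1 (adjusted p = 0.136) or 3 (0.0897) or the WT IL-6 array 3 (0.177). In STAT3-deficient cells 0 of 39 were called by limma between the cytokines, with 2 at an unadjusted p under 0.05 (Trim21 at 0.42 ± 0.10 with adjusted p = 0.0897, and Trim45), against 0.386% and 0.00838%.

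**Figure D4:**
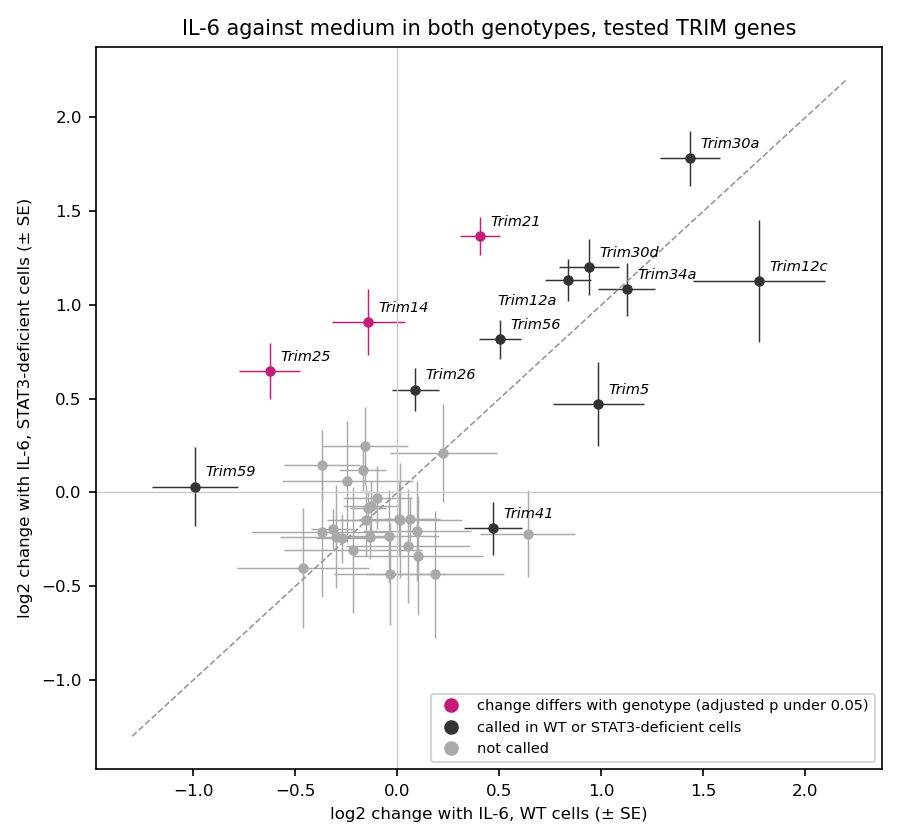
log2 change with IL-6 in WT cells (horizontal axis) and in STAT3-deficient cells (vertical axis) for the 39 tested TRIM genes, with SE bars. The dashed line marks equal change. Trim14, Trim21 and Trim25 (magenta) are the genes whose change differed with genotype, and all 3 lie above the line.

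Among the 7 tested TRIMs of signalling and turnover without PRY-SPRY, Trim59 was called. This membrane-anchored TRIM is best known from proliferating and tumour cells. It read 10.33, 10.56 and 10.93 in medium, 9.31, 9.63 and 9.89 with IL-6 and 10.35, 10.82 and 10.86 with IL-27 in WT cells, where IL-6 arrays lay below all others, a fall of 0.99 on the log2 scale (SE 0.21, adjusted p = 0.0039). Without STAT3 the levels were 10.92, 11.05 and 10.64 in medium, 10.46, 11.09 and 11.15 with IL-6 and 10.79, 10.89 and 11.34 with IL-27. There the groups overlapped and IL-6 gave 0.03 ± 0.21. The difference of 1.02 ± 0.30 missed the call (adjusted p = 0.0782), while a second probe set gave 1.12 ± 0.21 with adjusted p = 0.0063 in a fit of all probe sets. As deposited, that second probe set read 957.3 to 974.3 signal units in WT medium and 510.2 to 522.3 in STAT3-deficient medium. The first had means of 10.60 and 10.87 there after normalisation, so the direction in medium depends on the probe set. The genotype difference in the IL-6 change was called with the replicate block (0.0107), the deposited scaling (0.0245), median centring (0.00343) and the mean of all probe sets (0.00233), and without the STAT3-deficient IL-6 array 1 (1.24, adjusted p = 0.0204).

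Trim8, known to bind SOCS1, gave changes from -0.29 to 0.01 with cytokine, none called, while Socs1 itself, a feedback inhibitor of STAT signalling, rose in all 4 comparisons with medium by 1.90 to 3.74. Trim13, an endoplasmic reticulum ligase, read highest with IL-6 in WT cells, 0.64 ± 0.23, without a call (adjusted p = 0.114).

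Among the 11 tested genes of the other PRY-SPRY TRIMs, changes with cytokine ran from -0.83 to 0.47. Trim41, a ligase of protein kinase C, read 9.72, 9.26 and 9.74 in medium, 10.16, 9.90 and 10.07 with IL-6 and 9.79, 9.63 and 9.53 with IL-27 in WT cells and rose with IL-6 by 0.47 ± 0.14 (adjusted p = 0.0465). This call was lost without the WT IL-6 array 1 (adjusted p = 0.174), 2 (0.0531) or 3 (0.135) or the WT medium array 2 (0.281). Trim27 gave the lowest value, -0.83 ± 0.30 with IL-27 in STAT3-deficient cells (adjusted p = 0.158). It was called there without the STAT3-deficient IL-27 array 3 (-1.25, adjusted p = 0.00609), without the medium array 3 (-1.12, 0.0467) and without both and the IL-6 array 3 (-1.54, 0.000358). Its other probe sets gave -0.50 to 0.31 with all arrays kept, and were not fitted without those arrays. Trim43a, of a family known from early embryos, was also called there without those arrays (-1.58, adjusted p = 0.000744, against -0.73 ± 0.34 with them), and without either the IL-27 array 3 (-1.15) or the medium array 3 (-1.17).

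The TIF1 corepressors, which silence chromatin through a bromodomain and a PHD finger, gave no call with the cytokines. Trim28 (KAP1, the corepressor of KRAB zinc finger proteins), Trim33 (which binds SMAD2 and SMAD3) and Trim24 (a cofactor of nuclear receptors) gave changes from -0.27 to 0.26 with cytokine. With IL-6 in WT cells they gave -0.27 ± 0.13, -0.15 ± 0.09 and -0.17 ± 0.11 in that order (adjusted p = 0.285, 0.437 and 0.499, limma). Trim24 gave 0.26 ± 0.11 with IL-27 in STAT3-deficient cells (adjusted p = 0.251). The 4 NHL-repeat TRIMs, Trim2, Trim3, Trim32 and Trim71, gave -0.30 to 0.25, none called. Trim36, the tested member of the 6 microtubule and muscle COS-box TRIMs, gave -0.43 to 0.01.

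In medium, 10 of the 39 genes were higher in STAT3-deficient than in WT cells and none was lower, against 13.7% higher and 13% lower over all genes. They were Trim28 (0.67 ± 0.13), Trim21 (0.60 ± 0.10), Trim35 (0.59 ± 0.10), Trim30d (0.59 ± 0.15), Trim34a (0.47 ± 0.14), Trim33 (0.28 ± 0.09), Trim3 (0.50 ± 0.17), Trim5 (0.65 ± 0.22), Trim75 (0.84 ± 0.27) and Trim43a (0.98 ± 0.34). Trim25, at -0.39 ± 0.15 (adjusted p = 0.0584), was called lower in STAT3-deficient cells with the deposited scaling (-0.61, adjusted p = 0.00744), under median centring (-1.15, 0.000253), without the STAT3-deficient medium array 3 (-0.55, 0.015), without the WT medium array 3 (-0.50, 0.0326) and without all STAT3-deficient arrays numbered 3 (-0.55, 0.0178). Trim28 read 12.27, 12.37 and 12.28 in WT and 12.98, 13.16 and 12.77 in STAT3-deficient medium. Trim33 read 11.07, 11.14 and 11.00 and 11.36, 11.29 and 11.39. These groups do not overlap, and the STAT3-deficient arrays of both genes also stayed above the WT arrays with IL-6 and with IL-27. Their second probe sets gave 0.23 ± 0.12 for Trim28, not called, and 0.67 ± 0.11 for Trim33, called. Trim35 read 11.03, 11.03 and 11.01 and 11.81, 11.64 and 11.39, but its other probe sets gave the opposite sign, -0.76 ± 0.22 and -0.64 ± 0.23. A second probe set of Trim21 likewise gave -0.53 ± 0.13, so the direction for Trim21 and Trim35 depends on the probe set read, as it does for Trim30d. Trim43a read 7.75, 7.67 and 7.79 and 9.35, 8.95 and 7.84, Trim3 8.24, 8.22 and 8.58 and 9.06, 8.80 and 8.68, and Trim75 6.86, 6.75 and 6.12 and 7.42, 7.29 and 7.54. Trim75 passed the filter through 3 arrays, all of them STAT3-deficient, so its place among the tested genes depended on this difference.

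The difference between genotypes in medium also depended on scaling and on single arrays. Centring each array on its median, which shifted the median of all genes to -0.40, turned the Trim genes called from 10 higher and 0 lower to 2 higher and 9 lower, and the share of higher calls over all genes from 51.4% to 11.4%. Without the STAT3-deficient medium array 1 the 10 calls became 4, and without the WT medium array 1 they became 5. In the same comparison Cd79a of B cells (1.73 ± 0.51), Cd74 of antigen-presenting cells (1.71 ± 0.26) and Lyz2 of myeloid cells (1.97 ± 0.30) were called higher in STAT3-deficient cells, as were 5 of 7 tested B cell markers and 4 of 8 tested myeloid markers, with 2 of the latter lower. Over all genes 13.7% were called higher and 13% lower there. The part of these markers in the Trim differences was not tested. Pax5, Ebf1, Itgam and Cd14 were not among the tested genes.

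The partners of the TRIM pathway were read from lists. Of 14 tested ubiquitin E1 and E2 enzymes, Uba7, the E1 enzyme of the ubiquitin-like protein ISG15, rose with IL-6 and IL-27 in WT cells by 0.79 ± 0.17 and 1.62 ± 0.17 and in STAT3-deficient cells by 1.62 ± 0.17 and 2.06 ± 0.17. Ube2d3, an E2 enzyme that works with many RING ligases, rose with IL-6 in WT cells by 0.54 ± 0.11, and the other 12 were not called with either cytokine. Of 19 tested genes of RNA and DNA sensing signalling, 5 rose and 2 fell with IL-6 in WT cells, 5 rose with IL-27, and 4 rose with each in STAT3-deficient cells. Over all genes 3.66%, 2.71%, 1.69% and 3.28% were called higher in these comparisons, and 4.68% were called lower with IL-6 in WT cells. Ddx58, the RIG-I gene whose product Trim25 acts on, rose by 0.82 with IL-6 in WT cells, where Trim25 fell, and by 0.80 in STAT3-deficient cells, where Trim25 rose (SE 0.09 each). Dhx58, encoding LGP2, Ifih1, encoding MDA5, and Irf7 rose with IL-6 in STAT3-deficient cells by 2.38 ± 0.28, 2.25 ± 0.27 and 2.50 ± 0.15.

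Of 3 tested TRIM-class genes under other symbols, Pml, which builds nuclear bodies, was called. It rose with IL-27 in WT cells by 1.81 ± 0.16 and in STAT3-deficient cells with IL-6 and IL-27 by 1.87 ± 0.16 and 2.57 ± 0.16, and its IL-6 change was 1.56 ± 0.23 larger in STAT3-deficient cells (adjusted p = 0.000369). The 6 partners of Trim28 were not called with a cytokine, where at most 3.66% of all genes were called higher and 4.68% lower. Between the genotypes in medium 1 of the 6 was called, near the 13.7% of all genes called higher there. This was Setdb1, the histone methyltransferase Trim28 recruits, 0.38 ± 0.11 higher in STAT3-deficient medium. As another family of RING proteins chosen by symbol alone, 65 Rnf genes were tested, of which 4, 4, 4 and 5 rose with IL-6 and IL-27 in WT and in STAT3-deficient cells, where all genes gave 3.66%, 2.71%, 1.69% and 3.28%. Rnf144a fell with both in WT cells, by 0.89 and 0.56 on the log2 scale, and no Rnf gene was called lower with either cytokine in STAT3-deficient cells. Between the genotypes in medium, 8 of the 65 were higher and 6 lower in STAT3-deficient cells, against 13.7% and 13% over all genes. Rnf213, a giant ligase induced by interferon, rose in all 4 by 2.00 to 2.48, and Rnf19a rose with IL-6 in WT cells by 1.43 ± 0.11 with a genotype difference of -1.54 ± 0.15. Of 17 tested antiviral reference genes, 9 rose with IL-6 and 16 with IL-27 in WT cells, and 15 and 16 in STAT3-deficient cells, against the shares over all genes given with the Rnf genes. Rtp4 was among them in all 4, by 2.87 ± 0.23, 3.88 ± 0.23, 3.93 ± 0.23 and 3.99 ± 0.23.

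The 19 TRIM genes that were not tested were Trim6, Trim7, Trim9, Trim15, Trim17, Trim31, Trim40, Trim42, Trim46, Trim47, Trim54, Trim61, Trim62, Trim63, Trim66, Trim67, Trim69, Trim72 and Trim80. Each was judged on the 1 probe set read for it. Another probe set of Trim62, not read here, passed the filter with signals of 9.8 to 203.7 units. On the probe sets read, the signals of the 19 genes as deposited lay between 2.2 and 202 units on all arrays, and 13 of them were above the array median on none of the 18 arrays. Trim6, the member of the chromosome 7 run among them, read from 53.1 to 202 units with a median of 109.3. The signals of Trim54 and Trim63, known from striated muscle, had medians of 7.4 and 42.5 units. Trim47 and Trim42 both had a median of 11.8 units.

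The 20 tested genes called in no comparison were Trim2, Trim8, Trim10, Trim11, Trim13, Trim16, Trim23, Trim24, Trim27, Trim29, Trim32, Trim36, Trim37, Trim39, Trim44, Trim45, Trim60, Trim65, Trim68 and Trim71. Their changes with cytokine against medium ran from -0.83 to 0.64. Trim2, Trim10, Trim16, Trim29, Trim36, Trim37, Trim45, Trim60, Trim68 and Trim71 passed the filter on fewer than 18 arrays and therefore had the least signal behind their values.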

How the data were processed

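Total RNA was hybridised to Affymetrix mouse expression arrays. As deposited, each probe set has an intensity on a linear scale, which the authors made with GCOS per the submitters' processing notes. Its version, its algorithm and any genome build: not given in the sources used here. Every array had been scaled to 1 common trimmed mean (500 after dropping 2% of values from either end). The table holds 45101 probe sets, and symbols came from the platform's annotation table, which can be old (all 58 Trim symbols are current in the RefSeq gene table). Probe sets with several symbols, 5 of them naming a Trim gene, were not used for the main values.

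Signals were taken as log2 of the signal plus 32, which shrinks changes of dim genes. Array medians differed by 1.82-fold, over a limit of 1.5, so quantile normalisation was used (limma 3.58.1, R 4.3.3). A gene was tested where its probe set exceeded the array median on at least 3 arrays. One limma model with 6 group means was fitted to 18 arrays (12 residual and 6.25 prior degrees of freedom, variance trend), with 9 two-sided comparisons and Benjamini-Hochberg adjustment over 11932 genes. The scripts were tested on simulated data.

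Members, role groups, partner lists and marker lists were chosen with earlier results of these data known. Genes named with values are those called in at least 1 comparison, and of partner lists up to 4 with the largest called change, while Trim8, Trim13, Trim24, Trim27, Ifih1, Rnf144a, Setdb1, the markers and second probe sets were named after their values were seen. Promoter windows are those of RefSeq on GRCm38.p6, and protein sequences were not used here. The processing was varied by keeping the deposited scaling, by median centring, by constants of 8 and 128, no filter or a filter on the mean, averaging the probe sets of each gene, only the arrays compared, no variance trend, the sample number as a replicate block, and leaving out each array. Dropping the STAT3-deficient arrays numbered 3 was added after seeing the data. For arrays only their number, 3 a group, limits the precision that can be stated. The p-values set each difference against the spread between arrays within groups, pooled over the 6 groups and drawn by limma toward that of other genes.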

Additional observations from a re-analysis of the deposited data

Results flagged for a closer look

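The IL-6 change of 3 TRIM genes differed between the genotypes by the limma interaction test, as log2 STAT3-deficient minus WT, and is given again as the results a reader may want to look at: 1.27 for Trim25 (adjusted p = 0.00134), 1.05 for Trim14 (adjusted p = 0.0235) and 0.96 for Trim21 (adjusted p = 0.000372). For Trim14 the difference was lost in 9 of 23 alternatives, among them the mean of all probe sets (0.69, adjusted p = 0.0623) and no variance trend (0.0526). The Trim25 and Trim21 differences were called in all 23. Such a difference was not limited to TRIM genes. Of the 17 tested antiviral reference genes, 6 had a larger IL-6 change in STAT3-deficient cells and 0 a smaller one, against 1.84% and 1.25% of all genes. B cell and myeloid markers and array medians also differ between the genotypes, with values given above, and their part in these differences was not tested. No explanation was tested. Groups of 3 arrays are too small for the outlier test used on larger groups.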

How the results depend on the processing

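Of 37 calls of a TRIM gene against medium, 26 stayed called in every alternative run, and of the 10 between genotypes in medium, 0 did (14 of 39 genes had an unadjusted p under 0.05 in limma there). Under median centring the IL-6 calls in WT cells went from 11 to 7, without Trim21 (adjusted p = 0.253), Trim25 (0.0836), Trim41 (0.307) and Trim56 (0.159). With the mean of all probe sets, IL-27 against IL-6 gave 5 calls in WT cells (4 higher and 1 lower) and 1 in STAT3-deficient cells. With the same mean the genotype difference in the IL-6 change gave 5 (4 higher and 1 lower), and the genotypes in medium gave 3. With only the arrays compared, IL-27 against IL-6 in WT cells gave 5 and the genotypes in medium 6. With the replicate block, IL-27 against IL-6 gave 5 calls in WT and 1 in STAT3-deficient cells, and no other count moved by over 1.5 times. Of 18 pairs of same-numbered arrays 11 correlated over 0.1 in their deviations (from -0.15 to 0.366). In WT cells same-numbered pairs gave -0.015 to 0.227 and different-numbered pairs -0.221 to 0.089. In STAT3-deficient cells they gave -0.15 to 0.366 and -0.54 to 0.303. The labels do not explain the numbers, so the main fit did not use them as pairing. Whether they mark pairs or batches was not tested. Leaving out 1 array gave 4 to 9 calls between genotypes in medium. In that comparison median centring reversed Trim21 (-0.05), Trim28 (-0.12), Trim33 (-0.41), Trim34a (-0.22) and Trim35 (-0.12), gave -0.71 for Trim56, which stood at 0.01 without a call, and the mean of all probe sets reversed Trim30d (-0.41) and Trim35 (-0.27). Median centring also moved the share of higher calls over all genes from 65.7% to 98% for IL-27 in STAT3-deficient cells and from 59.6% to 77.8% for the genotype difference in the IL-6 change, whose median over all genes became 0.21. The cause of these moves was not tested.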

Other observations

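Of the 5 probe sets that name more than one gene, the one shared by Trim30d and Trim30a rose by 1.27 with IL-6 and 1.54 with IL-27 in WT cells and by 1.56 and 1.60 in STAT3-deficient cells. One of the 2 shared by Trim34b and Trim34a rose by 0.74 and 1.10 in WT cells and by 1.24 and 1.20 in STAT3-deficient cells. These values were not used in the comparisons above.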
